A study of Cavia porcellus with 24 samples.

Results

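The comparison described here is that of the 3 PR-C guinea pigs with the 3 PC-C guinea pigs, 6 of the 24 animals whose carotid RNA was sequenced, and it asks what maternal food restriction alone left in the carotid transcriptome of offspring that ate control chow. The members were taken from the sample labels, which give generation, maternal ration and offspring diet for each animal. Both groups are F1 Hartley guinea pigs, born to F0 dams and housed with them until weaning. From then on both groups were fed control chow ad libitum. RNA was collected at 20 weeks of age, at the end of a 12 week period in which their counterparts ate high fat chow. PC-C animals (13, 27 and 28) came from dams given 100% of the ad libitum ration. PR-C animals (17, 25 and 36) came from dams given 70% of that ration for 3 weeks before mating and until gestation day 34, and 90% from then to the end of lactation. Litters were reduced to 3 pups and weaned at 28 days, and the labels do not say which animals shared a dam, although the study's methods state that siblings were kept apart when diets were assigned. In the study's animal list PR-C animal 17 is female and the other 5 animals are male.

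Undernutrition before and around conception reaches the embryo while its tissues and their chromatin marks are being laid down, and lasting changes in vessels and metabolism have been sought in the offspring. The endothelium lines every vessel, sets vascular tone and handles circulating lipoproteins, and its cells export excess cholesterol through transporters that the liver X receptors (LXRs) switch on. Chaperones, the proteins that fold other proteins, form another stress-sensitive system in these cells. A comparison of this kind is informative in 2 ways, through the differences it finds and through the size of the differences that its intervals leave out.

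Messenger RNA was collected by flushing a carotid artery with lysis reagent after the blood had been rinsed out, a step meant to collect the contents of the endothelial cells. The 6 libraries held between 22163509 (PC-C 13) and 27162017 (PR-C 25) reads counted on genes, within the range of 14061522 to 31148123 for all 24. The deposited values are those reads divided by a size factor for each library and are called normalized counts here. Of 18149 genes in the table, 13224 had a mean of 10 or more normalized counts and were tested, and 4925 were not. Names were available for 147 identifiers and 141 of these genes were tested. All of these names come from a list that the study drew up for high fat against control diet with the same PC-C animals, so the named genes were chosen partly on those 3 libraries. The endothelial, smooth muscle, fibroblast and erythrocyte markers written down had 0 members named, and the labelled cell type could not be checked here. The study reports its own test of vascular markers, from which it states that endothelial messenger RNA was enriched. In bulk RNA, fewer cells of a type and less RNA per cell cannot be told apart.

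On average, PR-C animals were no farther from PC-C animals than animals of the same group were from each other. For each pair of animals the median size of the log2 difference over the 13224 genes was taken as their distance. Within PC-C the 3 distances ran from 0.283 to 0.301, with a mean of 0.292. Within PR-C they ran from 0.285 to 0.383, with a mean of 0.329. The 9 distances between the groups ran from 0.203 to 0.369, with a mean of 0.299. The closest pair of all was PC-C 27 and PR-C 17, which came from different groups and were of different sex. The mean distance between groups minus that within groups was -0.012, with p = 0.7 in an exact one-sided permutation test over the 10 divisions of 6 animals, where the smallest p possible is 0.1. No pair of libraries agreed within counting error, the lowest chi-square per degree of freedom being 41.2, so each was counted as a separate sample.

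**Figure D1:**
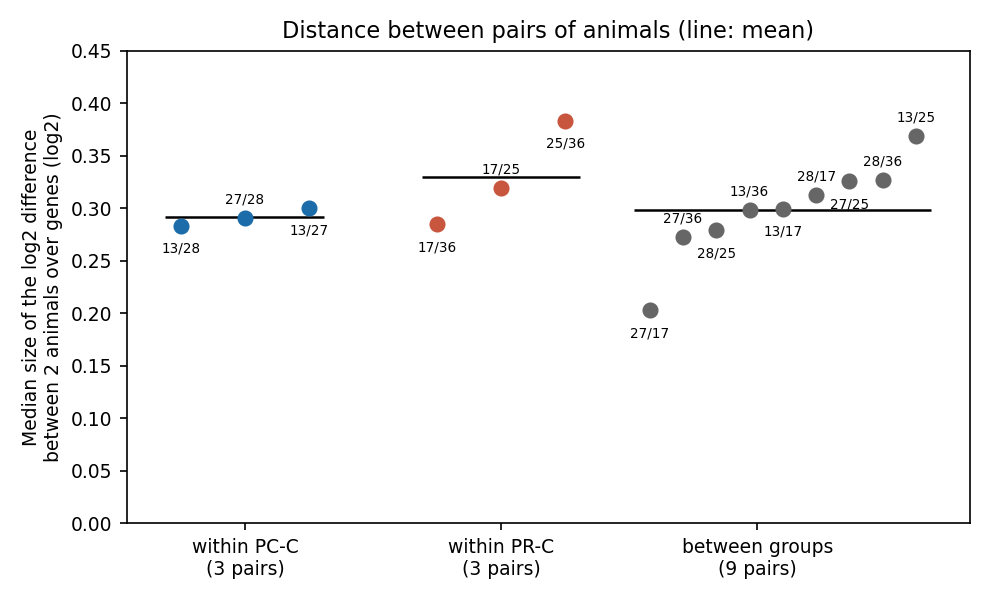
Each point is the median size of the log2 difference between 2 animals over 13224 genes (vertical axis, log2 units, starting at 0), labelled with the animal numbers, for pairs within PC-C, within PR-C and between the groups, and each line is the mean of a column. The between-group mean of 0.299 lies between the within-group means of 0.292 and 0.329, and the lowest point, 27/17 at 0.203, joins the groups.

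No gene passed an adjusted p of 0.05 in limma (0% of 13224 genes), and the lowest adjusted p was 0.743. At an unadjusted p under 0.05 there were 589 genes (4.45%), of which 281 were higher in PR-C (2.12%) and 308 were lower (2.33%). edgeR's quasi-likelihood test called 0 genes, with 582 (4.4%) at an unadjusted p under 0.05, and DESeq2 called 1 of 18100 genes (0.00552%), with 770 (4.25%) at an unadjusted p under 0.05. The DESeq2 count was unstable, at 20 on the 6 libraries alone, 32 without PC-C 27, 7 without PR-C 25, 0 without PR-C 36 and 2 without any 1 of the others. For 1046 genes (7.91%) the 3 PR-C values lay entirely above or entirely below the 3 PC-C values, with 527 higher (3.99%) and 519 lower (3.92%). These p-values measure the spread between the animals sequenced.

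The differences that were measured were mostly small. The log2 difference, PR-C minus PC-C on the scale of log2(normalized count + 1), had quartiles of -0.18 and 0.15, and its median size was 0.16, or 1.12-fold. The size factors of the deposited table centre these differences near 0, and 6567 genes were higher and 6649 lower in PR-C. The fitted difference was over 1.5-fold for 1598 genes (12.1%), over 2-fold for 714 (5.40%) and over 4-fold for 175 (1.32%). Beyond 2-fold the balance shifted, with 227 genes higher and 487 lower in PR-C. Low genes accounted for much of the spread in size. The median size fell from 0.55 in genes with a mean of 10 to 50 to 0.28 at 50 to 200, 0.16 at 200 to 1000 and 0.11 at 1000 or more. The median signed difference moved from -0.17 in the lowest of these classes to 0.03 in the highest.

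**Figure D2:**
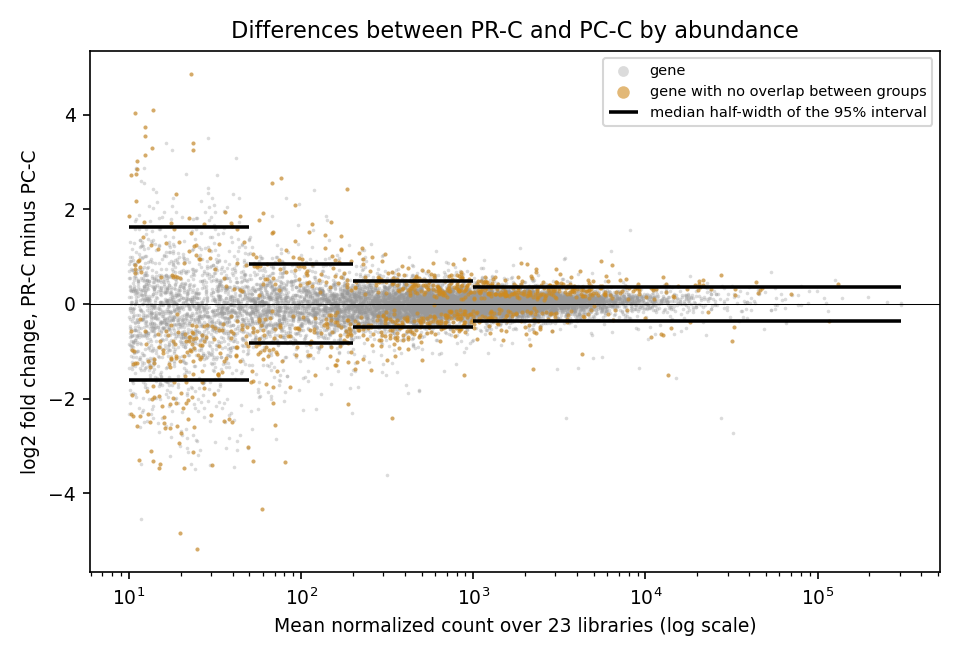
Each point is 1 of the 13224 genes tested, with its mean normalized count over 23 libraries (horizontal, log scale) and its log2 difference, PR-C minus PC-C (vertical), orange points are genes without overlap between the groups, and the black lines mark the median half-width of the 95% interval above and below 0 in each class of mean. The cloud narrows from left to right as the median size of the difference drops from 0.55 below a mean of 50 to 0.11 at 1000 or more, and the lines close in from 1.61 to 0.36.

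How large a change could still be present was read from the 95% interval of each gene. Its half-width had a median of 0.49 on the log2 scale (1.41-fold), with quartiles of 0.37 and 0.83. The whole interval lay within 2-fold either way for 9292 genes (70.3%) and within 1.5-fold for 5297 (40.1%). For these genes a larger change was outside the interval at that level. The intervals count animals as independent, although the ration was given to dams and the labels do not say which animals shared one. The interval lay within 4-fold for 11670 genes (88.2%), and for 1554 (11.8%) even a 4-fold change in at least 1 direction was inside it. A pair of one-sided tests against a 2-fold change, with Benjamini-Hochberg adjustment over genes, placed 9607 genes (72.6%) within 2-fold. In the other direction, of the 13224 intervals, unadjusted for the number of genes, 53 lay wholly beyond 1.5-fold and 20 wholly beyond 2-fold. Of these, 33 and 16 belonged to genes with a mean of 10 to 50, and 0 and 0 to genes at 1000 or more. In all, 589 intervals (4.45%) left out 0, and 0 of these genes passed the adjusted limma test. When the level was set to cover all 13224 genes jointly, the median half-width was 1.49 (2.81-fold), and 1199 genes (9.07%) stayed within 2-fold, 8175 (61.8%) within 4-fold and 0 within 1.5-fold.

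The width followed abundance. Among the 5115 genes with a mean of 1000 or more the median half-width was 0.36 (1.29-fold) and 96.1% of intervals lay within 2-fold. For the 4313 genes at 200 to 1000 the half-width was 0.48 (1.40-fold) and 85.2% lay within 2-fold. The 1802 genes at 50 to 200 had a half-width of 0.84 (1.78-fold) and 37.1% within 2-fold. In the 1994 genes at 10 to 50 the half-width was 1.61 (3.06-fold), 1.86% of intervals lay within 2-fold and 41.3% within 4-fold. Well expressed genes were thus bounded closely, whereas the design left 4-fold changes inside the interval for most of the lowest class. Spread between animals was similar in the groups, with a median SD over genes of 0.252 in PC-C and 0.278 in PR-C, and it was larger in PR-C for 7122 genes (53.9%).

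**Figure D3:**
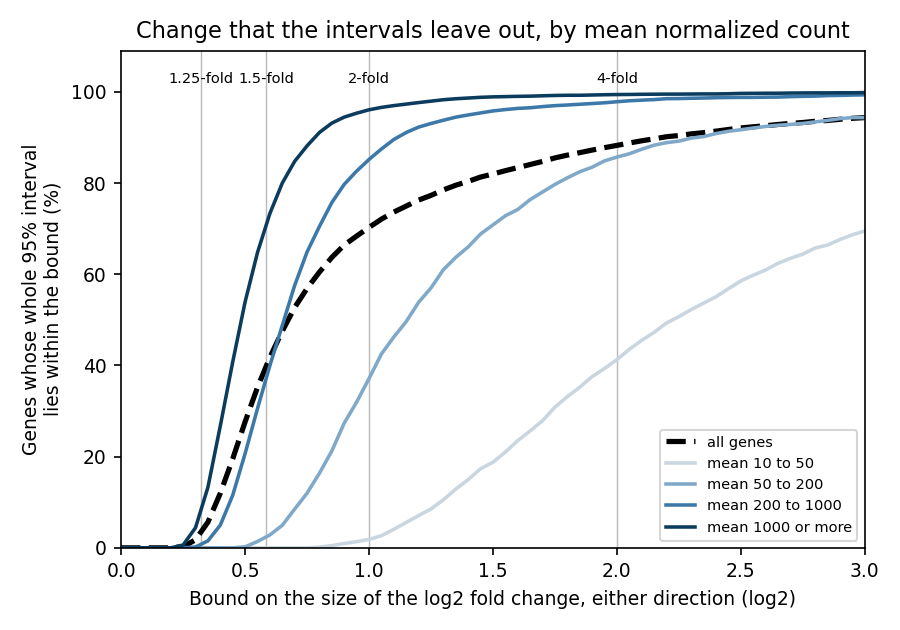
The share of genes (vertical, percent, from 0 to 100) whose whole 95% interval lies within a given change either way (horizontal, log2 units, with the matching folds marked) is drawn for all 13224 genes and for each class of mean normalized count. At 2-fold the curves stand at 70.3% for all genes, 96.1% at a mean of 1000 or more and 1.86% at 10 to 50.

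The closest bounds and the loosest ones among abundant genes mark the range of precision. ENSCPOG00000040787 had the narrowest interval of any gene with a mean of 1000 or more. It measured 3234, 3361 and 3266 normalized counts in PC-C animals 13, 27 and 28, and 3338, 3458 and 3407 in PR-C animals 17, 25 and 36. The groups overlapped, and the log2 difference was 0.05 (95% interval -0.14 to 0.24). ENSCPOG00000002486 and ENSCPOG00000005725 were nearly as steady, with differences of -0.01 (-0.20 to 0.18) and -0.09 (-0.28 to 0.10). At the other end, ENSCPOG00000001523 measured 1037, 8361 and 28518 in PC-C and 233, 5539.9 and 648 in PR-C. It spanned over an order of magnitude inside each group, and its difference of -2.73 had an interval from -6.79 to 1.32. ENSCPOG00000000267 (-2.41, interval -6.35 to 1.53) and ENSCPOG00000034742 (-0.20, interval -3.94 to 3.55) were as loose, so that abundance alone did not make a gene measurable here. ENSCPOG00000000267 and ENSCPOG00000001523 rose and fell together, at 126100 and 174854 in PC-H 21 and at 71.3 and 74.2 in PR-C-C 58. They are therefore not separate examples.

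Genes of cholesterol and fatty acid handling did not pass the test in either direction, and the width of their intervals differed greatly. Of the 11 LXR targets written down 2 were named, and of 13 genes of sterol and fatty acid synthesis 2 were named. Abcg1 (ENSCPOG00000015194), a transporter that loads cellular cholesterol onto high density lipoprotein, measured 202, 65.5 and 381 in PC-C animals 13, 27 and 28 and 658, 87.3 and 375 in PR-C animals 17, 25 and 36. Its groups overlapped, with animals 27 and 25 the lowest of their groups, and the difference was 0.69 (-0.48 to 1.87). It moved to 0.00632 without PC-C 27 and to 1.53 without PR-C 25. Srebf1, the transcription factor that drives fatty acid synthesis, measured 54.4, 21.2 and 227 in PC-C and 86.5, 78.3 and 98.8 in PR-C. The PR-C values all lay inside the range of PC-C, and the difference was 0.44 (-0.70 to 1.57). Scd1, a desaturase that makes monounsaturated fatty acids, measured 177, 211 and 623 in PC-C and 358, 368 and 181 in PR-C. Its difference of 0.01 had an interval from -0.85 to 0.88, which lies within 2-fold. Mylip, the ubiquitin ligase that degrades the LDL receptor, was bounded more closely. It measured 592, 340.3 and 659 in PC-C and 632, 386 and 576 in PR-C, a difference of 0.03 (-0.43 to 0.49).

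The diet response of the PC arm gives these bounds a scale. In that comparison, PC-H minus PC-C, which uses the same PC-C animals and from which these genes were selected, the log2 difference was 3.48 (2.30 to 4.65) for Abcg1, 3.22 (2.09 to 4.36) for Srebf1, 2.11 (1.24 to 2.97) for Scd1 and 1.55 (1.09 to 2.003) for Mylip. For each of these 4 genes the upper end of the PR-C interval was below the lower end of the diet interval. Ackr3 (ENSCPOG00000014142), a scavenging receptor for the chemokine CXCL12, measured 801, 1217 and 886 in PC-C and 1435, 2051 and 1374 in PR-C. All PR-C values were above all PC-C values, and its difference of 0.74 (0.01 to 1.48) had an unadjusted p of 0.0482 and an adjusted p of 1 in limma. With other animals, Ackr3 was higher in the PR arm by 0.99 (0.26 to 1.73) on high fat diet in F1. On control diet in F2 it was higher by 1.46 (0.73 to 2.20). The adjusted p was 0.251 and 0.815 in limma. On high fat diet in F2 the values went mostly the other way. Ackr3 measured 8483 and 3641 in PC-C-H and 4007, 2170 and 1225 in PR-C-H, and that difference was not tested. The interval of Ackr3 overlapped that of its diet response, 1.247 (0.51 to 1.98). Ppp1r2, an inhibitor subunit of protein phosphatase 1, differed by -0.07 (-0.49 to 0.35), against a diet response of 0.84 (0.42 to 1.26).

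Genes of protein folding had positive differences in PR-C with none passing the adjusted test. Their shares at an unadjusted limma p under 0.05 and without overlap were close to those of the named list they came from. Across 4 lists for folding and endoplasmic reticulum stress, 12 different genes were named and tested of 35 written down. All 12 had a positive difference, beside 93 of 141 in the named list and 6567 of 13224 over all genes tested. Their median was 0.25 and their range 0.11 to 0.61, beside a median of -0.001 over all genes tested and 0.15 over the named list. Without PR-C 25, 3 of the 12 were at or below 0, Xbp1 at -0.000182, Chchd4 at -0.0785 and Dnajb1 at -0.00836. Unadjusted p was under 0.05 for 4 of the 12 (33.3%, beside 29.1% of the named list and 4.45% of all genes), and the animals did not overlap for 4 (33.3%, beside 31.2% and 7.91%). The 95% interval lay within 2-fold for 11 of the 12 (91.7%, beside 70.3%). These genes are named only because they were found in the list of PC-H against PC-C, where they were higher in PC-H. That choice favours genes that happened to be low in these same PC-C animals, and the shared direction is therefore not independent evidence.

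Hspa8 (ENSCPOG00000004169), the constitutive cytosolic HSP70 chaperone, had the largest difference of the 12. It measured 17036, 20274 and 10826 in PC-C animals 13, 27 and 28 and 28046, 20879.6 and 22592 in PR-C animals 17, 25 and 36. The groups did not overlap but came close, with PC-C 27 just under PR-C 25, and the difference was 0.61 (0.08 to 1.13), with an unadjusted p of 0.0257 and an adjusted p of 1 in limma. Cct3 and Cct2 are subunits of the chaperonin that folds actin and tubulin. Cct3 measured 5718, 6141 and 6253 in PC-C and 7009.8, 7250.4 and 7008 in PR-C, a difference of 0.23 with an unadjusted limma p of 0.0476. Cct2 measured 2556, 2359 and 2205 against 2822, 2696 and 2663, a difference of 0.20 (-0.05 to 0.46). In both subunits every PR-C animal was above every PC-C animal. Cacybp, a partner of the HSP90 system and of ubiquitin ligases, differed by 0.38 (0.06 to 0.69) with an unadjusted limma p of 0.0216, and its groups overlapped. The co-chaperone Dnajb1, at 0.11, and the HSP70 family member Hspa14, at 0.13, had the smallest differences of the cytosolic genes.

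In the endoplasmic reticulum, Manf, a secreted stress-response factor, measured 2018, 1676 and 2181 in PC-C and 2457, 3163 and 2191 in PR-C. The lowest PR-C value was just above the highest PC-C value, and the difference was 0.40 (0.01 to 0.79). Dnajb11, a co-chaperone of BiP, differed by 0.28 (-0.01 to 0.57). Xbp1, the transcription factor of the unfolded protein response, measured 4850.4, 4863 and 4289 in PC-C and 5507, 6303 and 3942 in PR-C, so PR-C held both the highest values and the lowest, and the difference was 0.15 (-0.14 to 0.43). For the mitochondrion, Hspe1, the co-chaperonin of HSP60, differed by 0.27 (-0.10 to 0.64). Timm13, which escorts proteins to the inner membrane, differed by 0.31 (-0.12 to 0.74), and Chchd4, the import receptor of the intermembrane space, by 0.13 (-0.32 to 0.59). All 6 of these genes were bounded within 2-fold.

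The same 12 genes were read in comparisons that share no animal with PC-C and PR-C, on control diet in F2 and on high fat diet in F1. The comparison on high fat diet in F2 was not tested, and its values were mixed. Hspa14 measured 824 and 714 in PC-C-H and 903, 939 and 913 in PR-C-H, whereas Dnajb1 measured 3559 and 2994 against 2955, 2790 and 3259. In F2 on control diet, PR-C-C minus PC-C-C, all 12 were again higher in the PR arm, with a median of 0.30 and a range of 0.11 to 0.49, where 56.7% of the named list and 49.2% of all genes tested were higher. Hspa8 differed by 0.49 (-0.04 to 1.01) and Cacybp by 0.48 (0.16 to 0.79) in F2, and 4 of the 12 had an unadjusted p under 0.05 in limma (beside 13.5% of the named list and 4.65% of all genes), with a lowest adjusted p of 0.982. On high fat diet in F1, PR-H minus PC-H, the direction was mostly the opposite. There 10 of the 12 were lower and 2 higher, where 41.1% of the named list and 49.6% of all genes tested were higher. The median of the 12 was -0.20, beside -0.13 over the named list, and their range -0.63 (Timm13) to 0.25 (Hspa8). In limma 3 had an unadjusted p under 0.05 (beside 47.5% of the named list and 17.3% of all genes), with a lowest adjusted p of 0.251. The genes were selected as high in PC-H, which favours a negative PR-H minus PC-H difference, and its part in the direction was not tested. Levels of genes with a shared function move together, so the 12 are not 12 independent observations.

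**Figure D4:**
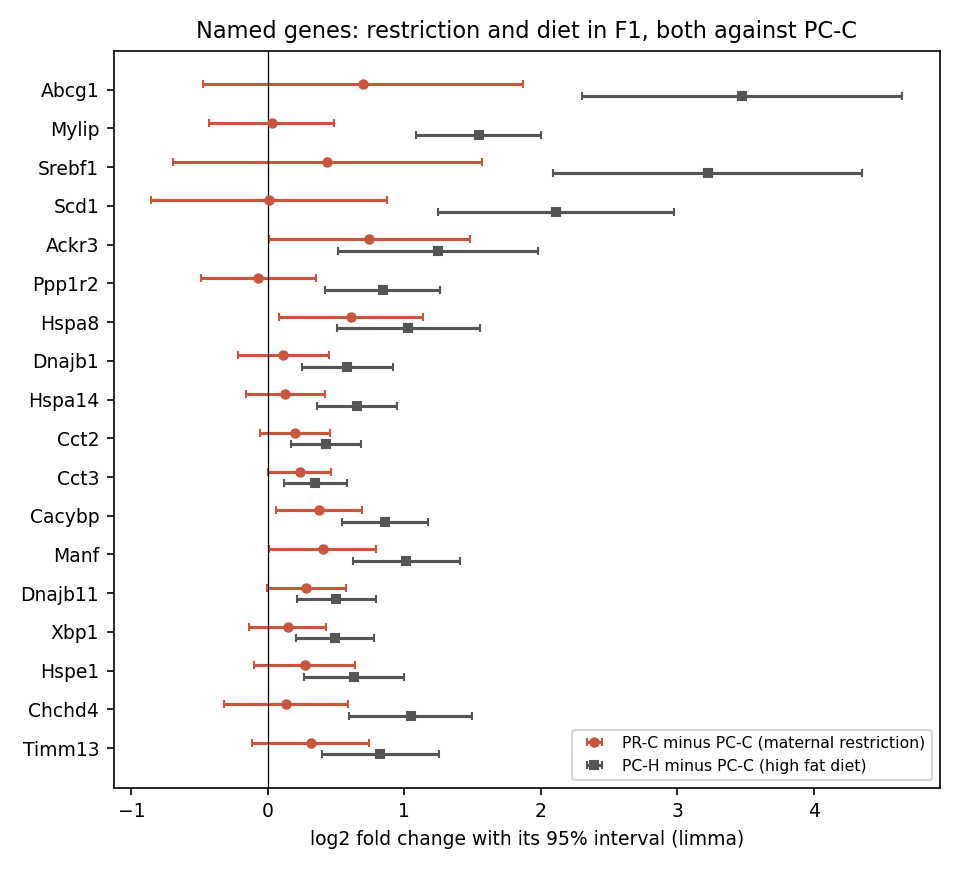
For 18 named genes the points are log2 differences and the bars their 95% intervals from limma (horizontal, log2 units), for maternal restriction on control diet (PR-C minus PC-C) and for diet in the PC arm (PC-H minus PC-C). The comparisons share the 3 PC-C animals and the genes were selected from the second one. The paired bars lie clearly apart for Abcg1, Srebf1, Scd1 and Mylip, narrowly apart for Ppp1r2 and Chchd4, and overlap for the others, Ackr3 included.

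**Figure D5:**
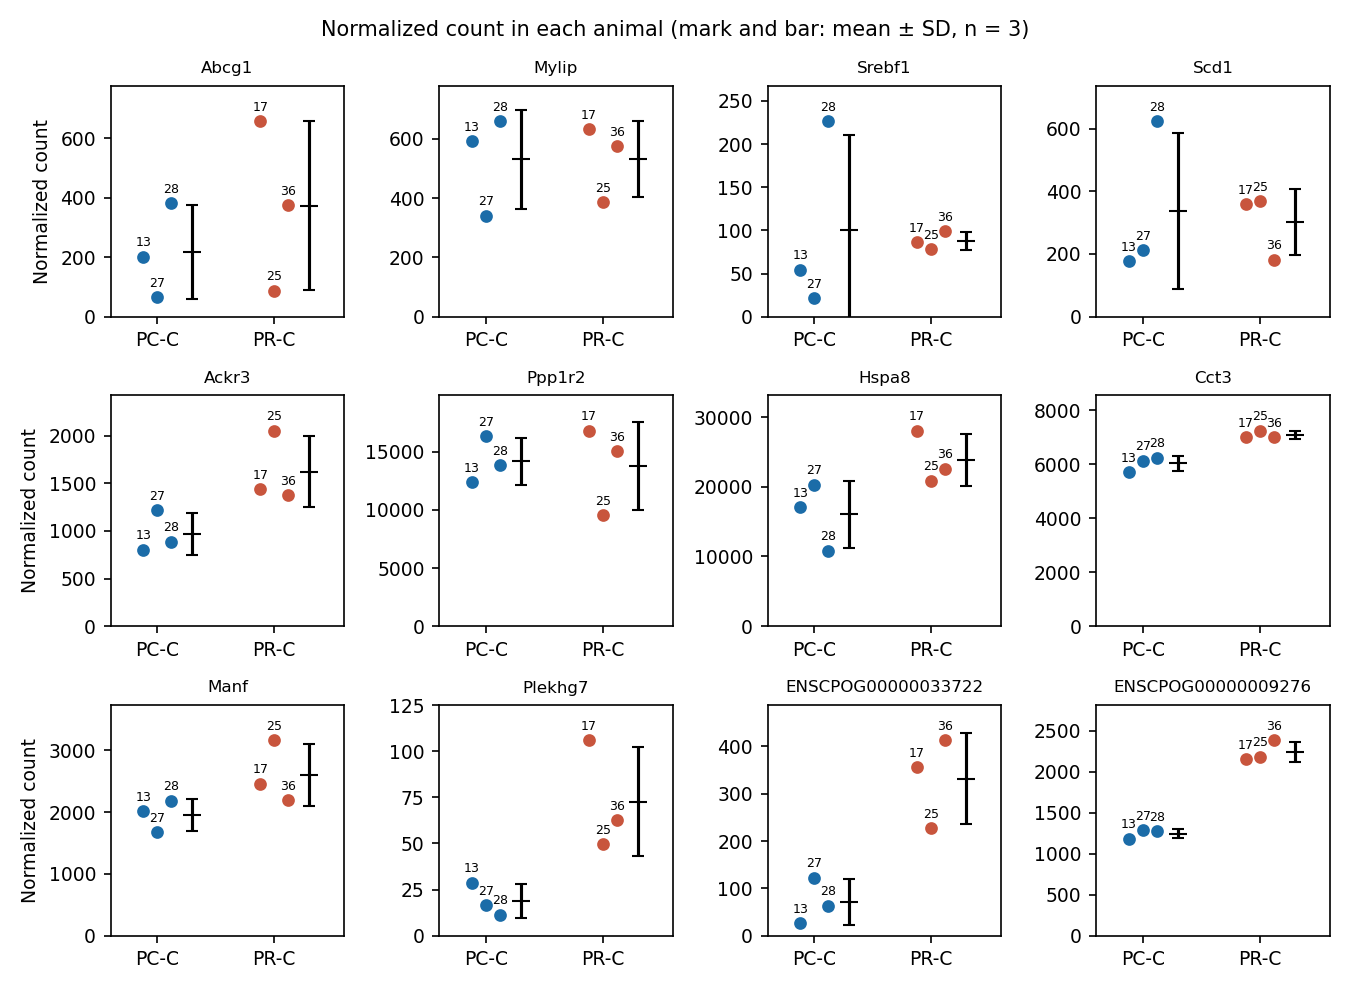
Normalized counts of single animals (vertical, each panel on its own scale starting at 0) are drawn for selected genes in PC-C and PR-C, with the mean and SD of 3 animals, and a bar that would run under 0 is cut at 0, as for Srebf1 in PC-C. ENSCPOG00000009276 separates the groups without overlap, at 1185 to 1284 in PC-C and 2153 to 2385 in PR-C, whereas the Abcg1 values interleave.

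Over the whole named list, 93 of the 141 genes tested were higher in PR-C and 48 lower, with a median difference of 0.15. Unadjusted limma p was under 0.05 for 41 (29.1%, beside 4.45% of all genes), and 44 did not overlap (31.2%, beside 7.91%), but 0 passed the adjusted threshold. The selection on PC-C applies to these counts too. For 108 of them (76.6%, beside 70.3%) the 95% interval lay within 2-fold. Plekhg7, a gene of the guanine nucleotide exchange factor family, measured 28.7, 16.4 and 11.3 in PC-C and 106, 49.5 and 62.5 in PR-C, and every PR-C animal was above every PC-C animal. The difference was 1.92 (0.81 to 3.03), with an unadjusted p of 0.00177 and an adjusted p of 0.902 in limma. Among the genes lower in PR-C, Ttc31 (-0.61, unadjusted p 0.00125) and Top1Mt (-0.77, unadjusted p 0.00168), named here after their values were seen, had no overlap between the groups and did not pass the adjusted limma test either.

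Chromatin and lymphocyte genes could be followed for a few members, named here after their values were seen. Tet2, an enzyme that oxidizes methylated cytosine, was 1 of 7 DNA methylation genes with a name. It measured 509.8, 575 and 502 in PC-C and 429, 214 and 379 in PR-C. All PR-C values were lower, with animal 25 the lowest, and the difference was -0.69 (-1.23 to -0.16), with an unadjusted p of 0.014 and an adjusted p of 1 in limma. Tet2 is also named only from the list of PC-H against PC-C, which used these PC-C animals. In that list 29.1% of genes tested had an unadjusted limma p under 0.05 and 31.2% did not overlap. Pou2Af1, a coactivator of B lymphocytes, was at 0 in all PC-C animals and at 9.30, 0 and 6.05 in PR-C animals 17, 25 and 36. Bach2, a repressor known from B and T lymphocytes, was under the mean of 10 and stood at 0 in all PC-C animals and at 3.72, 1.8004 and 0 in PR-C. Ndp, which encodes the Wnt pathway ligand norrin, was at 0 in all 6 animals. Levels this low are a few reads, and no fold is given.

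Among genes known only by identifier, ENSCPOG00000033722 had the lowest limma p and was the single gene called by DESeq2. It measured 26.7, 122 and 63.0 in PC-C animals 13, 27 and 28 and 356, 227 and 413 in PR-C animals 17, 25 and 36. All PR-C values were above all PC-C values, and animals 17 and 36 were also above every one of the other 17 animals fitted, which ran from 46.3 to 298 with a median of 165. The limma difference was 2.42 (1.43 to 3.42), or 5.36-fold, with an unadjusted p of 5.62e-05 and an adjusted p of 0.743. DESeq2 gave 2.23 with an adjusted p of 0.0392. The DESeq2 call was lost without PC-C 13 (adjusted p = 0.171), PC-C 28 (0.128), PR-C 17 (0.140) or PR-C 36 (0.172), and held without PC-C 27 (3.65e-05) or PR-C 25 (0.00802). In the 4 fits that lost the call the DESeq2 difference was still 1.84, 2.15, 2.18 and 2.04, in the same order.

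ENSCPOG00000009276 was even within each group. It measured 1185, 1284 and 1271 in PC-C and 2153, 2186 and 2385 in PR-C, with a wide gap between the groups and little spread inside either. The difference was 0.85 (0.45 to 1.24), or 1.797-fold, with an unadjusted p of 0.000257 and an adjusted p of 0.902 in limma. The other 17 animals ran from 1441 to 3113 with a median of 2114, so all 3 PC-C animals were below every other animal and the PR-C animals were within the range. ENSCPOG00000004318 measured 19.5, 49.2 and 36.7 in PC-C and 180.4, 177 and 90.7 in PR-C, a difference of 2.09 (0.89 to 3.29). ENSCPOG00000023531 measured 101, 41.5 and 37.6 against 198, 137 and 140.1, a difference of 1.51 (0.75 to 2.28). The groups did not overlap in either gene. ENSCPOG00000014391 and ENSCPOG00000026951 had still larger differences, of 2.66 and 2.56, and each rested partly on 1 PC-C animal with about 1 read, animal 13 at 1.03 and animal 28 at 0.94.

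Which of the groups stood apart from the rest of the series was counted for every gene. All 3 PC-C animals were below each of the other 17 animals for 32 genes (0.242%) and above each of them for 18 (0.136%). All 3 PR-C animals were below the other 17 for 8 genes (0.0605%) and above them for 5 (0.0378%). PC-C is the group in which Ackr3, Cct3, Dnajb11 and ENSCPOG00000009276 lay below the other 17. Ackr3, Cct3 and Dnajb11 have names only from the list of PC-H against PC-C, and ENSCPOG00000009276 was named for its low limma p. Both choices used these PC-C animals and favour such a place. For Ackr3 the other 17 animals ran from 1225 to 8483, against 801 to 1217 in PC-C, and for Cct3 from 6289 to 8847, against 5718 to 6253. Many of the other 17 animals differ from PC-C in diet or generation as well, and this count is a description.

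On the lower side, ENSCPOG00000030493 measured 1419.5, 332 and 433 in PC-C and 51.2, 228 and 114 in PR-C. Its groups did not overlap, PC-C 13 stood far above the rest, and the difference was -2.41 (-3.68 to -1.14) with an adjusted p of 0.902 in limma. ENSCPOG00000007487 was more even, at 102.6, 143 and 149 in PC-C and 24.2, 42.3 and 60.5 in PR-C, a difference of -1.68 (-2.54 to -0.83). ENSCPOG00000005665 followed at -1.42 (-2.14 to -0.69). ENSCPOG00000012020 and ENSCPOG00000015013 differed by -2.55 and -2.12, with PC-C 13 the highest animal in both. ENSCPOG00000000980 measured 124, 67.5 and 83.7 in PC-C and 0, 32.4 and 20.2 in PR-C, and its difference of -3.33 leans on the 0 of animal 17. ENSCPOG00000034500 measured 130.3, 9.64 and 26.3 in PC-C and 3.72, 0 and 0 in PR-C, where the fitted difference of -4.33 depends on the pseudocount. These genes were chosen for the size of their difference, and their values are a description.

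Whether the effect of maternal restriction on control diet differed from that on high fat diet or in the next generation was tested by interaction, and the tools gave different counts for generation. The interaction of restriction with diet in F1 gave 0 calls in limma and 0 in DESeq2. In limma 956 of 13224 genes had an unadjusted p under 0.05, beside 589 for PR-C minus PC-C. The median half-width of this interaction was 0.70 (1.62-fold), so moderate differences between the diets stayed inside the interval for many genes. The interaction with generation on control diet gave 0 calls in limma, with 493 of 13224 genes at an unadjusted p under 0.05, and 4 in DESeq2. The median size of the restriction difference was 0.16 on control diet in F1, 0.28 on high fat diet in F1 (PR-H minus PC-H) and 0.17 on control diet in F2 (PR-C-C minus PC-C-C), where the F2 animals descend from the same 2 arms through F1 females. Across genes, the F1 control diet differences had a Pearson correlation of 0.22 with those on high fat diet and 0.18 with those in F2. None of these comparisons shares an animal, but all are based on libraries normalized together, and genes are not independent replicates.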

How the data were processed

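RNA from the carotid lining of 24 guinea pigs was sequenced, 1 library an animal. The authors checked reads with FastQC, trimmed them with Trimmomatic and aligned them with STAR. Versions, genome build, annotation and read counter are not given in the sources used here, so how reads of near-identical genes were assigned is unknown. Each signal value in the table deposited by the authors is a read number scaled with the size factor that DESeq2 assigned to its library. All were whole reads after that scaling was undone (100%, tolerance 0.01), and the fewest reads of a gene were 4.

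limma 3.58.1 (intensity trend) was run in R 4.3.3 on log2(normalized count + 1) for genes with a mean of 10 or more in 23 libraries, with 8 group means (15 residual and 5.17 prior degrees of freedom), with Benjamini-Hochberg adjustment over genes. PC-C-H animal 51 is absent from the study's animal list and was left out. The study's text says that a PC-C-H sample was not of good quality, without giving its number. It reports RNA integrity numbers above 5 for all samples. Intervals are moderated 95% intervals. edgeR 4.0.16 and DESeq2 1.42.0 were run on the recovered reads. The labels and columns used numbered 24, with 0 columns of other samples.

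Genes were named if they passed an adjusted p of 0.05 in any tool, were among the 5 highest or 5 lowest differences (mean of 50 or more, unadjusted p under 0.05, no overlap) or the 5 lowest p-values, had 1 of the 3 narrowest or 3 widest intervals at a mean of 1000 or more, or belonged to a list with 3 or more members tested or are named in the study's text. Of 19 lists, 10 had no member named. Members and lists were chosen with earlier results of these data known. Identifiers matched 0 entries of the RefSeq table, and names came from the study's list for PC-H against PC-C. A genome was not used here, so positions and sequences are not given.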

Additional observations from a re-analysis of the deposited data

How the results depend on the processing

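No paired analysis was possible because each animal has its own number and the labels do not give its litter. limma called 0 genes under every alternative: pseudocounts of 0.1 and 10, no filter, TMM normalization, only the 6 or the 12 F1 libraries, animal 51 included, a term for sex, weights for libraries, and the omission of single animals, where the lowest adjusted p was 0.0781 (without PC-C 27). The median half-width ran from 0.462 (array weights) to 0.691 (no filter), and the number of genes bounded within 2-fold from 8802 to 10414. DESeq2 called 1 gene on all libraries, 20 on the 6 libraries alone and 0 to 32 with 1 animal left out (32 without PC-C 27 and 7 without PR-C 25), the last 2 settings chosen after seeing the data, and 4 genes for the interaction with generation. The cause was not tested.

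Small differences changed sign. With sex as a covariate, Mylip was at -0.0199, Scd1 at -0.12 and ENSCPOG00000002486 at 0.0140, and TMM normalization gave 0.00193 for the last. DESeq2 gave -0.20 for Srebf1 and -0.16 for Scd1. With 1 animal left out, the ranges crossed 0 for Scd1 (-0.33 to 0.57), Srebf1 (-0.34 to 1.34), Mylip (-0.26 to 0.24), Ppp1r2 (-0.23 to 0.18), Xbp1 (-0.000182 to 0.34), Chchd4 (-0.0785 to 0.31), Dnajb1 (-0.00836 to 0.19), ENSCPOG00000002486 (-0.0300 to 0.0162) and ENSCPOG00000034742 (-1.03 to 0.72). Intervals were widest for genes with a mean under 50, and the part of depth in this was not tested.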
